A study of Mus musculus with 18 samples.

Results

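The 33 genes described here belong to the integrated stress response and the endoplasmic reticulum (ER) stress response. They were taken from a list by gene symbol, and all 33 were measured among the 22485 genes of the arrays. The list holds 3 kinases of the translation factor eIF2 alpha (Eif2ak1, Eif2ak3, Eif2ak4), 6 transcription factors (Atf4, Atf5, Atf3, Ddit3, Cebpg, Nupr1), 4 feedback and stress effectors (Ppp1r15a, Trib3, Chac1, Sesn2), 6 enzymes of serine and one-carbon metabolism (Phgdh, Psat1, Psph, Shmt2, Mthfd2, Aldh1l2), 2 enzymes of asparagine and cysteine synthesis (Asns, Cth), 6 amino acid transporters (Slc3a2, Slc7a5, Slc7a1, Slc1a4, Slc1a5, Slc6a9), 4 ER stress sensors and targets (Ern1, Xbp1, Atf6, Herpud1), and Stc2 and Vldlr, which encode a secreted protein and a lipoprotein receptor.

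The cells were mouse macrophages grown from bone marrow for 7 days in 10 ng/ml M-CSF, the growth factor of macrophages, from donors aged 8 to 10 weeks. Their genotype was Nrf2+/+ (wild type) or Nrf2-/- (knockout). Nrf2, or Nfe2l2, encodes a transcription factor of the antioxidant response. In wild type, 3 arrays were of cells under albumin alone for 4 h, 3 of cells under LPS (bacterial endotoxin) for 4 h, and 3 of cells given 200 µM heme-albumin for 4 h and then LPS for 4 h. In the knockout, 4 arrays were of cells under LPS and 5 of cells under heme-albumin and then LPS. LPS was used at 10 ng/ml. The knockout had no group without LPS, no group had heme without LPS, and the labels of the LPS arrays do not say whether albumin came first. The sources used here do not describe the Nrf2 allele. Each array set 1 sample (Cy5) against RNA of untreated macrophages (Cy3), so each value below is a log2 ratio to that reference, on which a difference of 1 is a factor of 2. Replicates within a group are lettered a to e. The number of arrays limits the precision.

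The integrated stress response begins with kinases that phosphorylate eIF2 alpha: HRI (Eif2ak1), which heme itself inhibits, PERK (Eif2ak3), which senses unfolded proteins in the ER, and GCN2 (Eif2ak4), which senses uncharged tRNA. Phosphorylated eIF2 alpha slows translation in general but lets the mRNA of ATF4 be translated. ATF4, with partners such as C/EBP gamma (Cebpg) and CHOP (Ddit3), switches on genes that make, import and attach amino acids to tRNA, and GADD34 (Ppp1r15a) reverses the phosphorylation. IRE1 (Ern1), which splices the mRNA of XBP1, and ATF6 are the other sensors of the ER. Kinase activity, eIF2 alpha phosphorylation and translation of Atf4 do not show in mRNA ratios.

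A few facts of the whole series touch the results. Exact zeros made up 17.9% to 48.8% of an array's features. Array a of each of the 4 groups given LPS had 44.3% to 48.8%. Of the 594 values of the stress response genes 8 were 0, of which 6 belonged to Stc2. Nfe2l2 was listed at 0 on all 9 knockout arrays, and also on 2 of the 3 wild-type albumin arrays. The members lay close together on the albumin arrays, with a median SD of 0.0571 over the 33 genes, against 0.274 under LPS and 0.628 under heme and LPS in wild type, and 0.316 and 0.489 in the knockout. For all genes the median SDs were 0.0854, 0.21, 0.267, 0.238 and 0.32 in that order. The ratios carry no absolute level, so the presence or absence of a cell type's markers cannot be read from them. Of 10 measured macrophage markers 4 fell with heme in wild type (40%, against 6.35% of all genes), namely Fcgr1, Mertk, Mrc1 and Maf. In the knockout 2 fell (20%, against 2.67%), Fcgr1 and Maf, and 0 rose in either genotype. The mean log2 ratio of the 10 lay between 0.20 and 0.26 on the wild-type LPS arrays and between -1.32 and -0.88 on the wild-type heme arrays. In the knockout it lay between -0.07 and 0.39 under LPS and between -0.52 and -0.03 with heme. Of 10 neutrophil markers 2 rose with heme in wild type (20%, against 8.34% of all genes) and 1 in the knockout (10%, against 4.1%). The part of these shifts in the results below was not tested. In total RNA of a culture, fewer cells of a type and less RNA per cell cannot be told apart.

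Promoter sequences show where the 2 kinds of regulator named by the design and the list could bind. The windows were the 250 bases before each start site in RefSeq (GRCm38.p6), in which 28 of the 33 genes matched an entry. The composite element bound by ATF4 and its C/EBP partners was searched on both strands by the core TGATGNAA. This core was in the windows of 6 of the 28 (Atf3, Nupr1, Chac1, Asns, Herpud1 and Vldlr) and in those of 3.91% of 27025 genes. In the stretches below, read 5′ to 3′ along the gene's strand, capitals mark the core or its reverse complement. Asns lies at chr6:7693210-7693262 (minus strand), Chac1 at chr2:119351019-119351086 (plus), Atf3 at chr1:191183406-191183473 (minus), Nupr1 at chr7:126625543-126625610 (minus), Herpud1 at chr8:94386287-94386354 (plus) and Vldlr at chr19:27216790-27216857 (plus).
Asns: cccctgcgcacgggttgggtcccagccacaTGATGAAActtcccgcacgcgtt
Chac1: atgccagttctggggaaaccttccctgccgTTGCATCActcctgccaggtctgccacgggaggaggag
Atf3: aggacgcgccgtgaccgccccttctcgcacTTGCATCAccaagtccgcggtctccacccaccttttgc
Nupr1: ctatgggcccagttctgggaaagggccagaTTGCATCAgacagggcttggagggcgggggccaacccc
Herpud1: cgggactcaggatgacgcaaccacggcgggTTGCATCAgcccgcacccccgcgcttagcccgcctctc
Vldlr: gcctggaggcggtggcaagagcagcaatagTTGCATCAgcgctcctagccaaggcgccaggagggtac
The 5 genes other than Asns held the same 8 letters TTGCATCA, between 103 and 200 bases before the start site, while the Asns core TGATGAAA began 23 bases before it.

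The core of the antioxidant response element, to which NRF2 binds with small Maf proteins, was searched as TGACNNNGC on both strands. It was in the windows of 7 of the 28 (Sesn2, Phgdh, Asns, Slc7a1, Slc6a9, Ern1 and Herpud1) and in those of 11.5% of all genes. Slc6a9 is shown because its heme effect was called as different between the genotypes, a call lost in 14 of 26 alternatives. RefSeq start sites were not matched to the probes. RefSeq gives it several start sites, and 2 of their windows held the core, 46 and 45 bases before the start. The first stretch is chr4:117849274-117849342 and the second chr4:117855472-117855540, both on the plus strand, with the core in capitals.
Slc6a9, first start site: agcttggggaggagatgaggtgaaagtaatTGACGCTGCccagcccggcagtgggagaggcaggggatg
Slc6a9, second start site: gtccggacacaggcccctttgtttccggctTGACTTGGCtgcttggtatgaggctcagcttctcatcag
The ER stress response element, with its CCAAT box and its CCACG box 9 bases apart, was searched in the same way. It was in the windows of 0 of the 28 and of 0.13% of all genes. A match describes letters in a window and says nothing of binding in these cells.

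**Figure D1:**
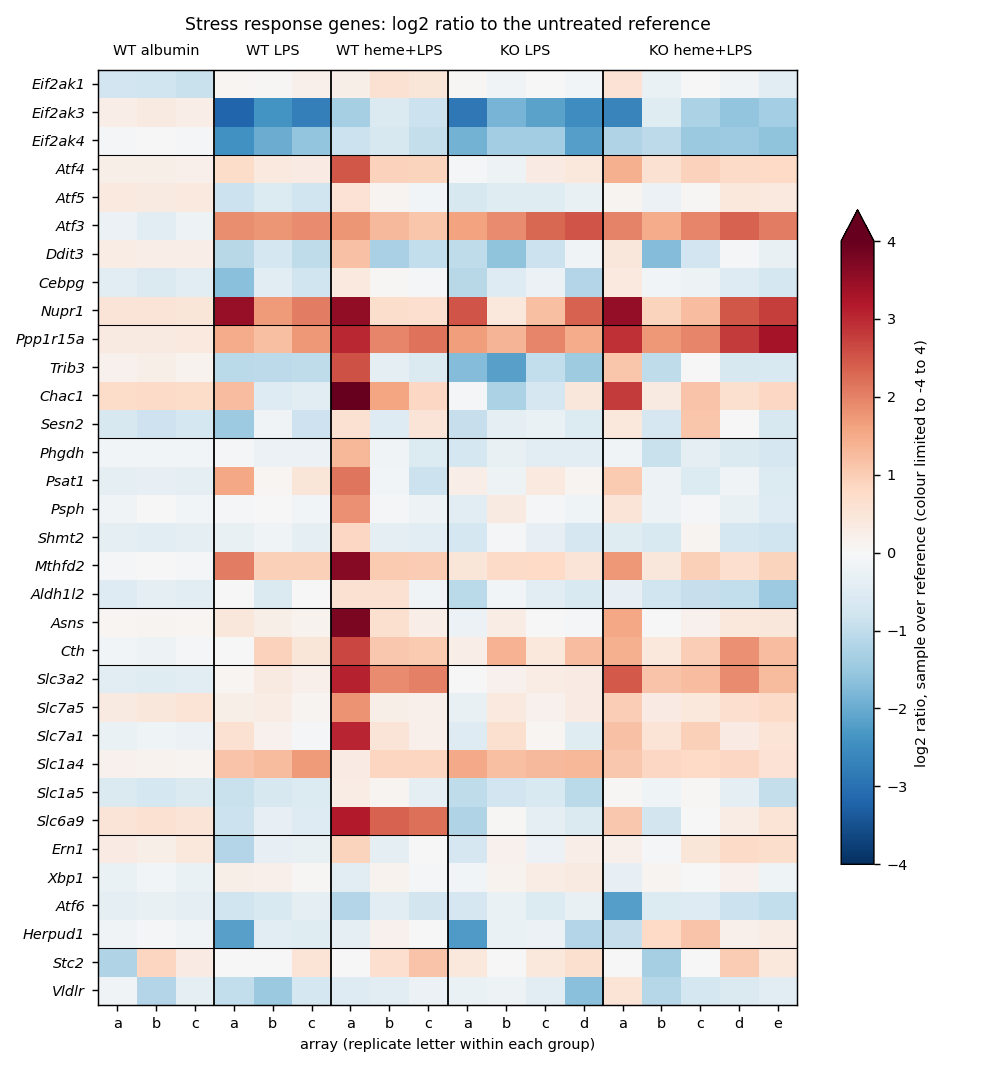
Log2 ratio to the untreated reference (colour, limited to -4 to 4) of the 33 stress response genes (rows, in the order of their roles) on each of the 18 arrays (columns, lettered within their group). Wild-type heme and LPS array a had the highest median over the 33 genes of the 18 arrays (1.19). It stood highest of its group for 24 of the 33 genes (72.7%, against 26.1% of all genes).

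The comparison of heme before LPS with LPS alone asked how heme altered the response of the macrophages. In wild type, heme raised a small part of the list. The transporters Slc6a9 and Slc3a2, the kinases Eif2ak3 and Eif2ak4 and the transcription factors Atf5 and Cebpg rose, and the transporter Slc1a4 fell. That is 6 of 33 genes higher (18.2%, against 8.34% of all genes) and 1 lower (3.03%, against 6.35%), each at a limma p under 0.05 after adjustment over all genes. The median difference of the 33 was 0.70, with 27 above 0, beside a median of 0 over all genes. In the knockout 2 rose (6.06%, against 4.1% of all genes), Slc3a2 and Atf5, and 1 fell (3.03%, against 2.67%), Slc1a4. The median difference there was 0.49, with 22 of 33 above 0. A fit with the replicate letter as a block was added, since letters were taken to pair the arrays of this comparison. Its letter effects were shared by all 18 arrays, so it is not a paired test of the knockout arrays alone. In it 4 genes rose in the knockout and 0 fell. Slc1a5 (0.75, limma adjusted p = 0.0131) and Herpud1 (1.28, adjusted p = 0.0436) were added, and Slc1a4 lost the call (-0.45, adjusted p = 0.105).

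**Figure D2:**
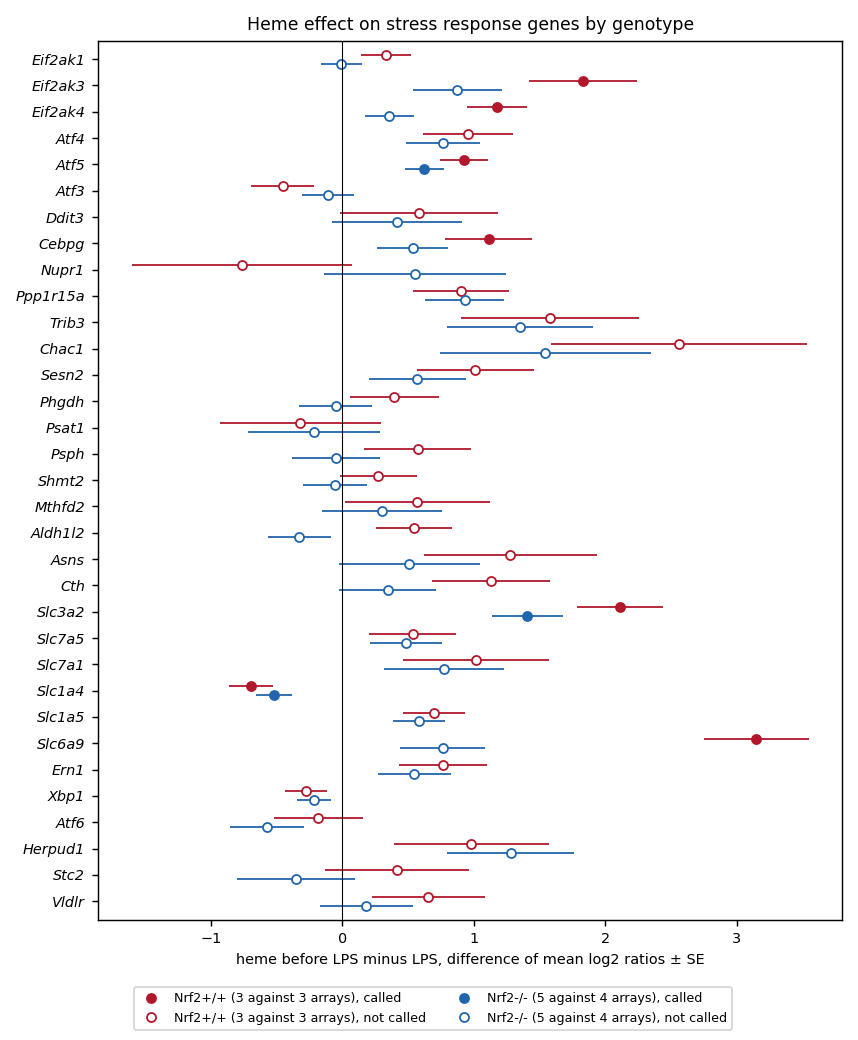
Difference of mean log2 ratios between heme before LPS and LPS alone, with its SE, for each stress response gene in wild type (red, 3 against 3 arrays) and in the knockout (blue, 5 against 4 arrays); filled points passed the limma test. Slc6a9 stood at 3.15 in wild type and 0.76 in the knockout, and Slc3a2 at 2.11 and 1.41.

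The heme difference of the list varied with the replicate letter and was largest for letter a in both genotypes. Letters were taken to pair the LPS and heme arrays of the knockout but not those of wild type. In wild type the same-letter arrays, as deviations from their group means over all genes, correlated at 0.48 for letter a. For letters b and c the value was 0.01. Wild-type LPS array b correlated with heme array c at 0.316, and LPS array c with heme array b at 0.355. What letters b and c mark in wild type is thus not clear, and their same-letter differences below are not those of known pairs. Set against the LPS array of its own letter, wild-type heme array a was more than 1 log2 unit higher for 23 of 33 genes (69.7%, against 7.15% of all genes), and the median difference was 1.58. For array b this held for 7 genes (21.2%, against 10.7%) with a median of 0.43, and for array c for 5 (15.2%, against 7.32%) with a median of 0.27. In the knockout the counts were 17 for array a (51.5%, against 4.06%, median 1.03), 4 for array b (12.1%, against 4.41%, median -0.12), 3 for array c (9.09%, against 2.73%, median 0.16) and 4 for array d (12.1%, against 5.91%, median 0.36). Heme array e of the knockout had no LPS array of its letter.

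Wild-type heme array a lay more than 1 log2 unit above both other heme arrays for 15 of the 33 genes (45.5%, against 3.19% of all genes): Atf4, Ddit3, Nupr1, Trib3, Chac1, Phgdh, Psat1, Psph, Shmt2, Mthfd2, Asns, Cth, Slc3a2, Slc7a5 and Slc7a1. Knockout heme array a lay as far above the other 4 for 5 genes (15.2%, against 1.27%): Trib3, Chac1, Psat1, Asns and Vldlr. Wild-type LPS array a lay more than 1 above both other LPS arrays for 4 genes (12.1%, against 2.36% of all genes), Nupr1, Chac1, Psat1 and Mthfd2, all of them among the 15. Knockout LPS array a did so for 0 genes (0%, against 0.725%). The median log2 ratios over the 33 genes were 0.00 and -0.41 on these LPS arrays, beside 1.19 and 0.54 on heme arrays a. The share of features at exactly 0 was 46.4% and 48.8% on heme arrays a and 45.7% and 44.3% on LPS arrays a, and its part in the pattern was not tested. With the 4 arrays a left out, the median heme difference of the 33 genes was 0.41 in wild type and 0.25 in the knockout. In wild type 7 genes were then called, Eif2ak3, Eif2ak4, Atf5, Chac1, Slc3a2 and Slc6a9 as higher and Slc1a4 as lower. In the knockout 6 were called, Eif2ak3, Atf4, Atf5, Slc3a2 and Herpud1 as higher and Slc1a4 as lower.

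**Figure D3:**
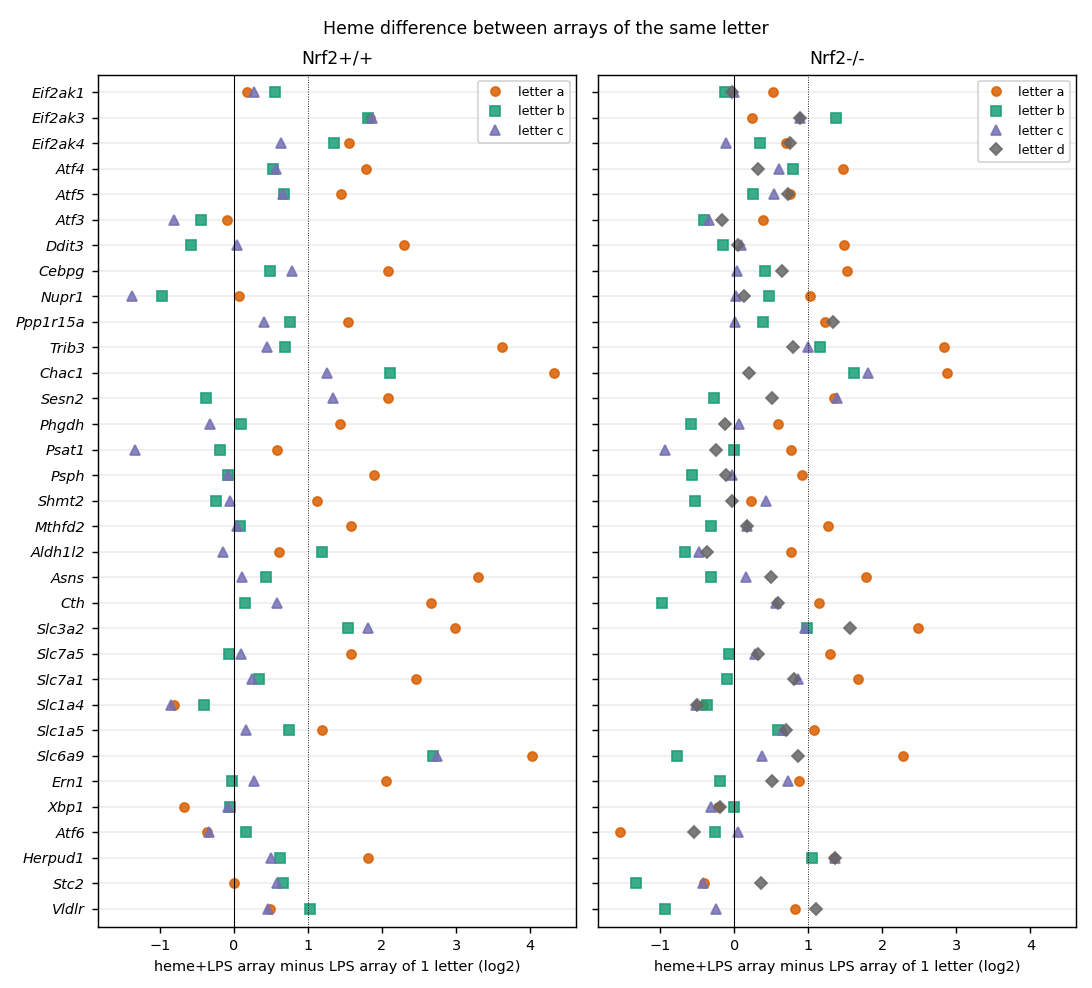
Heme and LPS array minus the LPS array of the same letter (log2) for each stress response gene, in wild type (left, letters a to c) and the knockout (right, letters a to d); the dotted line marks 1. The points of letter a lie past the dotted line for 23 genes in wild type and 17 in the knockout, those of the other letters for 3 to 7.

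Of the 3 eIF2 alpha kinases, Eif2ak3 (PERK) fell most with LPS and rose again with heme. Its log2 ratios were 0.28, 0.37 and 0.25 on albumin arrays a to c, -3.17, -2.39 and -2.73 on the wild-type LPS arrays, and -1.33, -0.59 and -0.87 on the wild-type heme arrays. The 3 groups did not overlap. The fall with LPS was -3.06 ± 0.41 (SE, n = 3 per group, limma adjusted p = 6.4e-05) and the rise with heme 1.83 ± 0.41 (adjusted p = 0.00665). In the knockout Eif2ak3 stood at -2.87, -1.86, -2.16 and -2.47 under LPS and at -2.63, -0.48, -1.27, -1.58 and -1.36 with heme. Array a alone overlapped the LPS group, and the difference of 0.87 ± 0.34 was not called (adjusted p = 0.170), but without heme array a it was 1.16 (adjusted p = 0.0181). Heme against LPS shares its wild-type LPS arrays with LPS against albumin, so a fall and a rise of 1 gene in the 2 comparisons rest in part on the same 3 values.

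Eif2ak4 (GCN2) went the same way by less. Its ratios were -0.09, 0.01 and -0.09 under albumin, -2.42, -1.99 and -1.58 under LPS and -0.87, -0.64 and -0.95 with heme. These 3 groups did not overlap either. It fell with LPS by 1.94 ± 0.23 on the log2 scale (limma adjusted p = 2.1e-05) and rose with heme by 1.18 ± 0.23 (adjusted p = 0.00251). The heme call was lost in 1 of 17 alternatives (adjusted p = 0.0662). In the knockout the heme difference was 0.36 ± 0.19 (adjusted p = 0.374). Eif2ak1 (HRI), the kinase that heme inhibits, rose with LPS by 0.94 ± 0.19 (adjusted p = 0.00171), from -0.77, -0.81 and -0.90 under albumin to 0.08, 0.06 and 0.20. With heme its wild-type arrays stood at 0.25, 0.61 and 0.47, all above the LPS arrays, but the difference of 0.33 ± 0.19 was not called (adjusted p = 0.347). In the knockout it was -0.01 ± 0.16.

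Among the transcription factors, Atf5, which is itself translated under the control of eIF2 alpha, fell with LPS and rose with heme in both genotypes. Its wild-type ratios were 0.39, 0.35 and 0.38 under albumin, -0.86, -0.55 and -0.79 under LPS and 0.58, 0.12 and -0.12 with heme. In the knockout they were -0.64, -0.47, -0.47 and -0.30 under LPS and 0.11, -0.23, 0.06, 0.42 and 0.39 with heme. In neither genotype did a heme array reach down to an LPS array. The rise was 0.93 ± 0.18 in wild type (limma adjusted p = 0.00241) and 0.62 ± 0.15 in the knockout (adjusted p = 0.0193), after a fall with LPS of 1.11 ± 0.18 on the log2 scale (adjusted p = 0.000309). The knockout call was lost without LPS array a (0.57, adjusted p = 0.0719), after quantile normalization and with the arrays of the comparison alone. The wild-type heme call was lost in 1 of 17 alternatives (limma adjusted p = 0.0827).

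Atf4, the central factor of the pathway, was also above LPS on all heme arrays, and a single array carried much of the mean. Wild-type ratios were 0.72, 0.40 and 0.31 under LPS and 2.50, 0.93 and 0.88 with heme. Knockout ratios were -0.05, -0.20, 0.32 and 0.43 under LPS and 1.43, 0.60, 0.92, 0.75 and 0.78 with heme. The groups did not overlap in either genotype, yet the differences of 0.96 ± 0.34 (limma adjusted p = 0.0859) and 0.77 ± 0.28 (adjusted p = 0.143) were not called. Without the arrays lettered a the knockout difference was 0.58 with an adjusted p of 0.0247, and the wild-type one 0.54 with an adjusted p of 0.0722. Without heme array a alone they were 0.64 (adjusted p = 0.253) and 0.42 (adjusted p = 0.299). Against albumin, at 0.24, 0.24 and 0.21, heme and LPS together raised Atf4 by 1.20 ± 0.34 (adjusted p = 0.0169), and by 0.67, still called, without heme array a.

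Cebpg rose with heme in wild type by 1.11 ± 0.33 (limma adjusted p = 0.0335), from -1.68, -0.44 and -0.81 to 0.40, 0.04 and -0.03. LPS array a was the lowest of its group and heme array a the highest of its own. With the arrays lettered a left out the difference was 0.63 (adjusted p = 0.212), and the call was lost without any single array of the 2 groups but LPS array b. Atf3, an early stress and endotoxin response gene, rose with LPS by 2.13 ± 0.24 (adjusted p = 1.3e-05), from -0.24, -0.41 and -0.22 to 1.86, 1.75 and 1.91. Its heme difference was -0.45 ± 0.24 (adjusted p = 0.293), with heme arrays at 1.76, 1.30 and 1.10, and in the knockout it was -0.11 ± 0.20.

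Ddit3, which encodes CHOP, the factor of stress-induced cell death, was not called in any comparison. Heme arrays a to c stood at 1.19, -1.30 and -0.98 in wild type, and heme arrays a to e at 0.46, -1.74, -0.77, -0.08 and -0.29 in the knockout, so that array a was the highest of both groups. The wild-type LPS arrays, at -1.10, -0.72 and -1.02, enclosed array c and lay above array b. Nupr1, a chromatin-associated stress gene, had wild-type heme arrays at 3.54, 0.72 and 0.68 and LPS arrays at 3.47, 1.69 and 2.05, so that array a was highest in both groups and arrays b and c were lower with heme. Its heme differences were -0.76 ± 0.84 (adjusted p = 0.726) and, in the knockout, 0.56 ± 0.69 (adjusted p = 0.812).

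**Figure D4:**
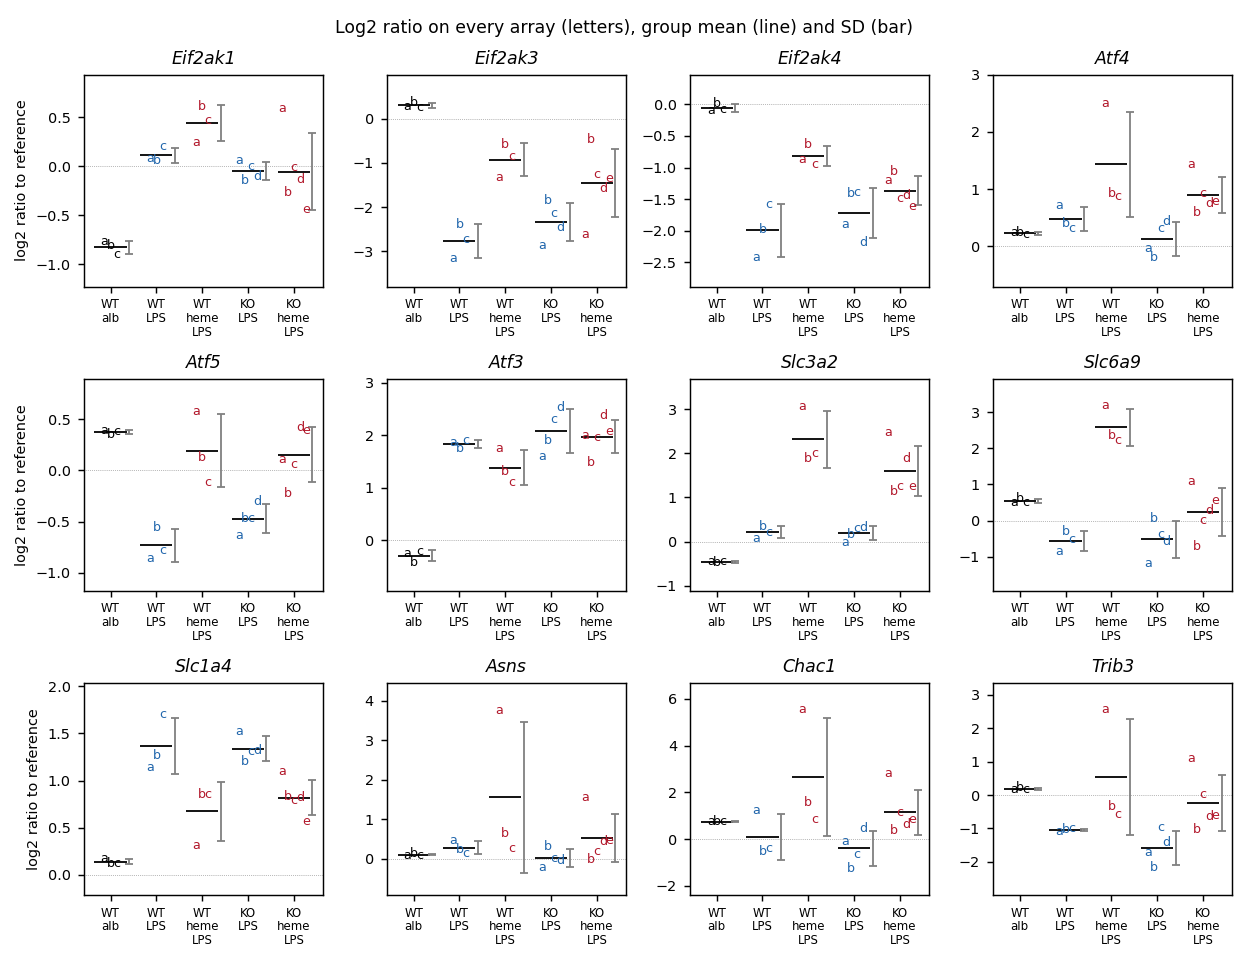
Log2 ratio on every array (letters; black albumin, blue LPS, red heme and LPS) with the group mean (line) and SD (grey bar) for 12 stress response genes in the 5 groups. Heme array a of wild type stands alone for Asns (3.76), Chac1 (5.56) and Trib3 (2.54), while the 3 wild-type heme arrays lie together above LPS for Slc6a9 and Eif2ak3.

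None of the 4 feedback and stress effectors was called for heme in either genotype, while their differences were among the larger ones of the list. Chac1, whose enzyme degrades glutathione, had wild-type LPS arrays at 1.23, -0.52 and -0.42 and heme arrays at 5.56, 1.58 and 0.83. Only LPS array a, at 1.23, reached above a heme array (c, at 0.83), and array a was the highest of both groups. The difference was 2.56 ± 0.98 (limma adjusted p = 0.109), without the arrays lettered a it was 1.68 (adjusted p = 0.0395), and without wild-type heme array a alone it was 1.11 (adjusted p = 0.409). In the knockout the arrays stood at -0.08, -1.26, -0.66 and 0.44 under LPS and at 2.79, 0.36, 1.15, 0.63 and 0.83 with heme, a difference of 1.54 ± 0.80 (adjusted p = 0.365).

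Trib3, a pseudokinase that restrains ATF4 and CHOP, stood near -1.0 on the 3 wild-type LPS arrays (-1.08, -1.04 and -1.01) and at 2.54, -0.35 and -0.57 with heme. All heme arrays lay above LPS. The difference of 1.58 ± 0.68 was not called (limma adjusted p = 0.163), and without heme array a it was 0.58 (adjusted p = 0.582). In the knockout it was 1.35 ± 0.55 (adjusted p = 0.206). Ppp1r15a (GADD34) rose with LPS by 1.11 ± 0.37 (adjusted p = 0.0344) and stood at 1.48, 1.20 and 1.75 under LPS and 3.02, 1.95 and 2.16 with heme. Its heme difference was 0.90 ± 0.37 (adjusted p = 0.138) in wild type and 0.93 ± 0.30 (adjusted p = 0.0879) in the knockout. Sesn2, which couples amino acid supply to mTORC1, differed by 1.01 ± 0.45 (adjusted p = 0.182) and 0.57 ± 0.37 (adjusted p = 0.515).

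The 6 enzymes of serine and one-carbon metabolism showed no call for heme, and in wild type array a was the highest heme array for each of the 6. Phgdh, the first enzyme of serine synthesis, stood at -0.09, -0.23 and -0.23 under LPS and at 1.34, -0.14 and -0.56 with heme. Psat1, the second enzyme, stood at 1.56, 0.07 and 0.49 under LPS and at 2.13, -0.12 and -0.85 with heme. Psph, the last, stood at -0.06, 0.01 and -0.11 and then at 1.83, -0.07 and -0.20. For all 3 enzymes array a was high with heme, and heme arrays b and c of Psat1 were below every LPS array. The mean differences of 0.40, -0.32 and 0.57 thus average arrays of unlike sign or size (limma adjusted p = 0.601, 0.898 and 0.488).

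Mthfd2, the mitochondrial folate enzyme, was at 2.06, 0.95 and 0.97 under LPS and at 3.64, 1.04 and 1.01 with heme. Its heme arrays b and c lay within the range of the LPS arrays. Against albumin, at -0.05, -0.03 and -0.07, heme and LPS together raised it by 1.94 ± 0.55 (limma adjusted p = 0.0165), and by 1.07, still called, without heme array a. Shmt2, which passes carbon from serine to folate in mitochondria, had heme arrays at 0.82, -0.40 and -0.43 and LPS arrays at -0.30, -0.15 and -0.37. Aldh1l2, another mitochondrial folate enzyme, was not called for heme within a genotype, with 0.55 ± 0.29 (adjusted p = 0.295) in wild type and -0.33 ± 0.24 (adjusted p = 0.595) in the knockout.

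Asns, the asparagine synthetase whose promoter core is printed above, was high on wild-type heme array a. Wild-type heme arrays stood at 3.76, 0.65 and 0.25, and LPS arrays at 0.46, 0.22 and 0.14. Knockout heme arrays stood at 1.55, -0.01, 0.17, 0.43 and 0.45, and LPS arrays at -0.23, 0.31, 0.01 and -0.06. Heme array a was thus the highest of its group in both genotypes, and heme array c of wild type and heme arrays b and c of the knockout lay within the range of LPS. The differences were 1.28 ± 0.66 (limma adjusted p = 0.275) and 0.51 ± 0.54 (adjusted p = 0.759), and the wild-type one was 0.18 without heme array a. Cth, which makes cysteine from cystathionine, stood at 0.00, 0.94 and 0.47 under LPS and 2.66, 1.09 and 1.05 with heme in wild type, where its LPS array a was listed at exactly 0. Its difference of 1.13 ± 0.45 was not called (adjusted p = 0.126), while against albumin heme and LPS together raised it by 1.72 ± 0.45 (adjusted p = 0.00987).

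The amino acid transporters held the largest called heme effects of the list. Slc3a2, the heavy chain shared by several exchangers including the cystine and the large neutral amino acid transporters, stood at 0.08, 0.35 and 0.20 under LPS and at 3.06, 1.89 and 2.01 with heme in wild type. In the knockout it stood at -0.02, 0.16, 0.29 and 0.32 under LPS and at 2.47, 1.14, 1.24, 1.88 and 1.26 with heme. All heme arrays lay above all LPS arrays in both genotypes. It rose by 2.11 ± 0.33 (limma adjusted p = 0.000438) in wild type and by 1.41 ± 0.27 (adjusted p = 0.00534) in the knockout, and each call held under every alternative tried. Of its light chains on the list, Slc7a5 had wild-type heme arrays at 1.81, 0.22 and 0.21 and LPS arrays at 0.23, 0.28 and 0.12. Its heme arrays b and c thus lay within the range of LPS.

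Slc6a9, the glycine transporter GLYT1, had the largest heme effect of the 33 genes in wild type. It stood at 0.51, 0.62 and 0.51 under albumin, -0.86, -0.32 and -0.53 under LPS and 3.17, 2.37 and 2.21 with heme. In the knockout it stood at -1.19, 0.06, -0.38 and -0.57 under LPS and at 1.09, -0.72, -0.01, 0.29 and 0.56 with heme. The wild-type heme arrays lay above every other array of the series, whereas the knockout heme arrays overlapped LPS. The rise was 3.15 ± 0.40 (limma adjusted p = 8.3e-05) in wild type and held under every alternative. In the knockout the difference was 0.76 ± 0.33 (adjusted p = 0.229).

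Slc1a4, a carrier of alanine, serine and cysteine, went the opposite way: it rose with LPS by 1.23 ± 0.17 (limma adjusted p = 7.2e-05) and fell with heme by 0.69 ± 0.17 on the log2 scale in wild type (adjusted p = 0.0106) and by 0.52 ± 0.14 in the knockout (adjusted p = 0.0352). Its wild-type ratios were 0.17, 0.13 and 0.12 under albumin, 1.13, 1.27 and 1.70 under LPS and 0.32, 0.86 and 0.85 with heme. The 3 groups did not overlap, and array a was the lowest with heme. In wild type the call was lost in 3 of 17 alternatives (limma adjusted p up to 0.190), among them without LPS array c (-0.53, adjusted p = 0.0537). In the knockout it was lost in 9 of 20 (adjusted p up to 0.230). Among these were the fits without LPS array a, c or d or heme array b, c, d or e (-0.53 to -0.45, adjusted p = 0.0585 to 0.121). Its relative Slc1a5, the glutamine carrier, stood at -0.90, -0.63 and -0.56 under LPS and 0.29, 0.12 and -0.40 with heme, without overlap, and its difference of 0.70 ± 0.24 was not called (adjusted p = 0.0666). Slc7a1, the carrier of cationic amino acids, stood at 0.60, 0.16 and -0.04 under LPS and 3.06, 0.50 and 0.21 with heme (difference 1.02 ± 0.55, adjusted p = 0.316).

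The ER branch of the list showed no call for heme, LPS, both together or genotype, in the unblocked fit. Ern1 (IRE1) differed by 0.76 ± 0.34 with heme in wild type (limma adjusted p = 0.180) and by -0.94 ± 0.34 with LPS (adjusted p = 0.0503). Xbp1, its splicing target, differed with heme by -0.27 ± 0.16 (adjusted p = 0.361) and Atf6 by -0.18 ± 0.34 (adjusted p = 0.893). These ratios do not separate spliced from unspliced Xbp1 mRNA. Herpud1, a part of ER-associated degradation, stood at -2.18, -0.46 and -0.48 under LPS and -0.37, 0.16 and 0.02 with heme in wild type. In the knockout it stood at -2.27, -0.26, -0.23 and -1.16 and then at -0.92, 0.79, 1.14, 0.20 and 0.31. Array a was the lowest array in all 4 of these groups. In wild type all heme arrays lay above all LPS arrays, and in the knockout heme was higher within each of letters a to d. The differences were 0.98 ± 0.59 (adjusted p = 0.378) and 1.28 ± 0.48 (adjusted p = 0.159; 0.0436 with the letter as a block). Stc2, with 6 of its 18 values at exactly 0, and Vldlr, whose 2 probes differed in sign for heme and LPS against albumin (-0.53 and 0.83), were not called in any comparison.

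LPS alone against albumin in wild type raised 4 of the 33 genes (12.1%, against 12.3% of all genes), Atf3, Slc1a4, Ppp1r15a and Eif2ak1, and lowered 4 (12.1%, against 16.3%), Eif2ak3, Eif2ak4, Atf5 and Slc6a9. The median difference was 0.04, and both counts were near the shares of all genes. Slc6a9 fell by 1.11 ± 0.40 on the log2 scale (limma adjusted p = 0.0490). The calls of Atf3, Slc1a4, Eif2ak1, Eif2ak3, Eif2ak4 and Atf5 held under every alternative, while that of Ppp1r15a was lost without any 1 of the albumin arrays or LPS array a or c (0.97 to 1.11, adjusted p = 0.0761 to 0.113) and that of Slc6a9 without any 1 of the 6 arrays (-1.24 to -0.97, adjusted p = 0.0652 to 0.147). With array weights 15 genes were called and with the arrays of the comparison alone 14.

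Heme and LPS together against albumin raised 9 of the 33 (27.3%, against 12.9% of all genes) and lowered 2 (6.06%, against 14.4%). Slc3a2 rose by 2.78 ± 0.33 (limma adjusted p = 2.6e-05), Slc6a9 by 2.04 ± 0.40 (adjusted p = 0.00146), Ppp1r15a by 2.01 ± 0.37 (adjusted p = 9e-04), Atf3 by 1.68 ± 0.24 (adjusted p = 0.000132), Eif2ak1 by 1.27 ± 0.19 (adjusted p = 0.00019) and Slc1a4 by 0.53 ± 0.17 (adjusted p = 0.0272), beside Mthfd2, Cth and Atf4. Eif2ak3 (-1.23 ± 0.41, adjusted p = 0.0381) and Eif2ak4 (-0.76 ± 0.23, adjusted p = 0.0227) remained below albumin. This comparison shares its arrays with both others in wild type. The calls of Eif2ak3, Eif2ak4 and Slc1a4 were each lost without any 1 albumin array, those of the 2 kinases also without heme array a or c, and that of Slc1a4 without heme array b or c. When the 3 closely similar albumin arrays were averaged and counted as 1 sample, 5 genes were called, all higher. The calls of Atf4, Mthfd2 and Cth were among those lost (adjusted p = 0.173, 0.172 and 0.131), and they were also lost with the arrays of the comparison alone (adjusted p = 0.158, 0.163 and 0.0650).

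Genotype was compared under LPS and under heme and LPS. Under LPS alone 0 of the 33 genes differed between knockout and wild type (limma; 0% were higher and 0% lower, against 0 and 0.00445% of all genes, which is 1 of 22485). At an unadjusted p under 0.05 the count was also 0, against 2.48% of all genes. Slc6a9, for example, differed by 0.05 ± 0.37, with a 95% interval from -0.75 to 0.84, and Slc3a2 by -0.02 ± 0.31, with an interval from -0.67 to 0.64. Differences inside such intervals were not detectable with this number of arrays.

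Under heme and LPS the knockout was lower for 2 of the 33 genes (6.06%, against 3.16% of all genes) and higher for 0 (against 2.13%). Slc6a9 was lower by 2.34 ± 0.35 on the log2 scale (-2.34, limma adjusted p = 0.00103), with all 5 knockout arrays below all 3 wild-type arrays. Aldh1l2 stood at 0.61, 0.60 and -0.15 in wild type and at -0.33, -0.79, -0.93, -0.98 and -1.44 in the knockout, a difference of -1.25 ± 0.26 (adjusted p = 0.0103) without overlap. With the letter as a block, which paired these arrays too, Slc6a9 kept its call and Aldh1l2 did not (-1.06, adjusted p = 0.0658). With the arrays of the comparison alone neither was called, and without wild-type heme array b Aldh1l2 was not (-1.12, adjusted p = 0.0591).

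The interaction (knockout heme effect less the wild-type one) was called for 1 of the 33 genes, Slc6a9, as lower (3.03%, against 0.707% of all genes), and for 0 as higher (against 0.24%). The value for Slc6a9 was -2.39 ± 0.51 (limma adjusted p = 0.0427), with a 95% interval from -3.49 to -1.29. It lay between -2.70 and -2.09 under all alternatives, but the adjusted p passed 0.05 in 14 of them, among them the block (-2.46, adjusted p = 0.103) and each fit without 1 of the wild-type LPS or heme arrays, knockout heme array c, d or e, or knockout LPS array b, c or d (adjusted p = 0.0571 to 0.116). For Slc3a2 the interaction was -0.71 ± 0.42 (adjusted p = 0.815, interval from -1.61 to 0.20), for Atf5 -0.30 ± 0.23 (adjusted p = 0.902, from -0.80 to 0.19) and for Eif2ak3 -0.96 ± 0.53 (adjusted p = 0.760, from -2.10 to 0.18). For the kinases and Atf5, a call in wild type beside none or a smaller one in the knockout was thus not shown to be a difference between genotypes. The median interaction over the 33 genes was -0.33.

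Other genes of the same pathways were taken from 5 lists, of which 104 of 108 genes were measured. The shares of all genes to read beside their counts are 8.34% higher and 6.35% lower with heme in wild type, and 4.1% and 2.67% in the knockout. Of 14 genes that form or control eIF2, 4 rose with heme in wild type (28.6%) and 2 fell (14.3%), and in the knockout 3 rose (21.4%) and 0 fell. Impact, which holds back GCN2, rose by 3.00 ± 0.33 in wild type (limma adjusted p = 2.4e-05) and 2.14 ± 0.27 in the knockout (adjusted p = 0.000293). Eif2b4, a subunit of the exchange factor of eIF2, rose by 1.39 ± 0.18 and 0.96 ± 0.15. Dele1, which relays mitochondrial stress to HRI, fell with LPS by 1.85 ± 0.18 on the log2 scale and rose with heme by 1.23 ± 0.18. Eif2ak2 (PKR), the kinase of the family that is induced by interferon, rose with LPS by 3.05 ± 0.56 and fell with heme by 2.47 ± 0.56 on the log2 scale, and Ppp1r15b, a phosphatase subunit for eIF2 alpha, rose by 3.31 ± 0.40 and fell by 1.81 ± 0.40.

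Of 19 cytosolic aminoacyl-tRNA synthetases 5 rose with heme in wild type (26.3%, against 8.34% of all genes) and 0 fell, and in the knockout 0 were called in either direction by limma (against 4.1% and 2.67%). The interaction was called for 0 of the 19, so their heme effect was not shown to differ between genotypes. Under heme and LPS the knockout was lower for 1 of the 19, Eprs (5.26%, against 3.16% of all genes), and higher for 0 (against 2.13%). That difference of Eprs was -1.08 ± 0.22 (limma adjusted p = 0.0102). With heme in wild type Eprs rose by 1.52 ± 0.25 (limma adjusted p = 0.000754), Iars by 1.05 ± 0.33 (adjusted p = 0.0425) and Nars by 1.03 ± 0.26 (adjusted p = 0.0146). Without wild-type heme array a the calls of Iars (0.67, adjusted p = 0.184) and Nars (0.73, adjusted p = 0.0675) were lost and that of Eprs held (1.16, adjusted p = 0.000932). Of 28 other ATF4 targets 7 rose (25%) and 1 fell (3.57%) in wild type, and 6 rose (21.4%) and 2 fell (7.14%) in the knockout. Slc38a2, a neutral amino acid carrier, rose by 1.94 ± 0.34 and 1.15 ± 0.28, and Ddit4, an inhibitor of mTORC1, by 1.77 ± 0.40 and 1.29 ± 0.33. Without the arrays lettered a both calls of Ddit4 were lost (limma adjusted p = 0.0510 and 0.115), and that of the knockout also without heme array a alone (1.15, adjusted p = 0.0551). Slc7a11, the cystine carrier that pairs with Slc3a2 and is a target of both ATF4 and NRF2, rose by 5.54 ± 1.40 in wild type (adjusted p = 0.0139), where 1 of the 3 LPS arrays was listed at exactly 0. Its call was lost in 4 of 17 alternatives, among them the one without the arrays lettered a (4.48, adjusted p = 0.0607). In the knockout its mean log2 ratio was 1.39 under LPS (0 to 3.61) and 3.97 with heme (1.34 to 5.77). The interaction was called for 0 of the 28 genes, so their heme effect was not shown to differ between genotypes. Under heme and LPS the knockout was higher for 1 of the 28 (3.57%, against 2.13% of all genes) and lower for 1 (3.57%, against 3.16%). These were Gadd45a (1.61 ± 0.39, limma adjusted p = 0.025) and Mthfd1l (-1.05 ± 0.27, adjusted p = 0.0338).

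Of 30 ER chaperone, folding and degradation genes 5 rose with heme in wild type (16.7%, against 8.34% of all genes) and 0 fell, and 1 rose in the knockout (3.33%, against 4.1%). Sec24d, a coat protein of vesicles leaving the ER, rose by 1.68 ± 0.19 (limma adjusted p = 3.9e-05), Dnajb9 by 1.24 ± 0.31 (adjusted p = 0.0126) and Ero1a by 1.19 ± 0.28 (adjusted p = 0.00953). Without the arrays lettered a the calls of Dnajb9 (1.17, adjusted p = 0.111) and Ero1a (0.68, adjusted p = 0.0709) were lost. Hspa5, the central ER chaperone BiP, was raised by LPS (1.07 ± 0.19, adjusted p = 0.000715) and was not called for heme. Of 13 other ER stress transducers 2 rose in wild type (15.4%) and 1 in the knockout (7.69%). Tnfrsf10b, a death receptor gene that CHOP can induce, rose by 2.90 ± 0.24 (adjusted p = 2.5e-06) and 1.52 ± 0.20 (adjusted p = 0.000354), and was lower in the knockout under heme and LPS by 1.45 ± 0.21 on the log2 scale (-1.45, adjusted p = 0.000866).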

How the data were processed

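Per the labels, 500 ng of total RNA per sample was labelled with Cy5 and hybridised against untreated reference RNA with Cy3 on Agilent arrays, with 3 to 5 independent biological replicates per group. The deposited values are log10 ratios of sample over reference, made with Agilent Feature Extraction 10.5.1.1 per the submitters' processing notes. That the scale is log10 is not stated and was read off the values. The sources used here state neither a background or dye correction nor the reference's genotype.

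Log2 ratios were computed from these and each symbol's probes were averaged, which reduced 33026 named features (11371 more had no symbol) to 22485 genes. Of the 33 genes 24 had 1 probe and 9 had 2. No filter was applied. Group means were fitted over all 18 arrays with limma 3.58.1 (lmFit, contrasts.fit, eBayes) in R 4.3.3. The tests were two-sided, with p-values adjusted over all genes by the method of Benjamini and Hochberg, and a gene counted as called below an adjusted p of 0.05. The script was tested on simulated data. The members and lists were chosen with earlier results of these data known. All 33 were named, and of the pathway lists up to 3 called genes per direction and comparison whose groups did not overlap, by size.

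Replicate letters were checked as pairs by the correlation of same-letter deviations from the group means over all genes. It was 0.22 to 0.59 for heme in the knockout and 0.20 to 0.58 for genotype under LPS. For genotype under heme and LPS it was 0.23 to 0.53. Letters were taken to pair these arrays, but for heme in the knockout this is not clear for letters b and c. LPS array b correlated at 0.32 with heme array c and at 0.23 with heme array b. LPS array c correlated at 0.36 with heme array b and at 0.22 with heme array c. The same-letter correlation was 0.48, 0.01 and 0.01 (letters a to c) for heme in wild type. There letters were not taken to pair, although the arrays of letter a went together. Letters b and c crossed in wild type too. Its LPS array b correlated at 0.316 with heme array c, and its LPS array c at 0.355 with heme array b. Promoters were from RefSeq (GRCm38.p6). Alternatives were the scaling, exact zeros, probes, block, arrays fitted, array weights, prior spread and arrays left out. Python 3.11.15 with pandas 2.3.3 searched the promoters and, with matplotlib 3.10.9, drew the figures.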

Additional observations from a re-analysis of the deposited data

Results flagged for a closer look

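Psat1 on knockout heme array a stood at 1.04, apart from the other 4 arrays of its group at -0.56 to -0.16. Vldlr on knockout LPS array d stood at -1.68, apart from the other 3 at -0.44 to -0.20. These were the 2 of 66 combinations of gene and group with 4 or 5 arrays in which the gap of 1 array to the others passed Dixon's 95% value, and chance alone gives about 1 in 20. Groups of 3 arrays, among them the wild-type heme arrays, were not examined in this way.

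The heme effect was called as different between the genotypes, by the interaction in limma, for Slc6a9 (-2.39, adjusted p = 0.0427). So was that of Sec24d (-1.32, adjusted p = 0.0202), a member of the list of ER folding genes. For Slc6a9 the call was lost in 14 of 26 alternatives. For Sec24d the call was lost with the arrays of the comparison alone (-1.32, adjusted p = 0.0597) and without wild-type LPS array b (-1.24, adjusted p = 0.0662).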

How the results depend on the processing

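No called value of a named gene changed sign under an alternative. Of 122 called values 48 held under all alternatives and 74 lost the call in at least 1, and 32 values not called passed in at least 1. Counts of stress response genes moved by more than 1.5 times as follows. For LPS against albumin 8 became 14 with the arrays of the comparison alone and 15 with array weights. For heme in wild type 7 became 3 with the arrays of the comparison alone. For heme in the knockout 3 became 6 without the LPS-treated arrays lettered a, and 1 to 4 without 1 array. For the interaction 1 became 0 with the replicate block and with the arrays of the comparison alone, and 0 or 1 without 1 array. For genotype under heme and LPS 2 became 1 with the replicate block, 0 with the arrays of the comparison alone and 4 with array weights, and 1 to 4 without 1 array. For heme and LPS against albumin 11 became 5 with the albumin arrays averaged as 1 sample, an alternative chosen after seeing the data. Apart from the fewer samples in some alternatives, the cause was not tested.

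Over all genes, the arrays of the comparison alone gave 1545 called in place of 3303 (heme, wild type), 752 in place of 1523 (heme, knockout), 116 in place of 213 (interaction), 0 in place of 1 (genotype under LPS) and 317 in place of 1189 (genotype under heme and LPS). Array weights gave 5340, 879 and 2124 for heme in wild type, the interaction and genotype under heme and LPS. Averaged albumin arrays gave 3207 in place of 6433 for LPS and 2793 in place of 6142 for heme and LPS. Genotype under LPS gave 0 with the block and 6 without the arrays lettered a. Without 1 array the counts were 951 to 1637 for heme in the knockout, 135 to 323 for the interaction and 1 to 3 for genotype under LPS. Except where named, the block changed no call of the 33 genes in the comparisons whose letters were taken to pair. In the others letters were not taken to pair, and the block gave 9 genes in place of 7 for heme in wild type.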
